A study of Homo sapiens with 12 samples.

Results

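This report concerns 1463 annotated introns that were almost completely removed from mRNA in untreated control A549 cells, a human lung adenocarcinoma line. They were chosen from 3434 annotated introns with at least 10 reads in each of the 6 untreated libraries, as those whose mean inclusion in the untreated control libraries was under 5%. Inclusion is the percentage of transcripts that keep the intron, estimated from reads that hold the intron and reads that join the flanking exons, each divided by the length on which it can fall. The 1463 introns, 42.6% of those measured, lay in 1104 genes, of which 864 held a single one. None of the 1463 shared both ends with another, and 4 overlapped another.

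The libraries came from A549 cells infected with a lentivirus and selected with puromycin, and left untreated or treated with Cisplatin at 25 µg/ml for 20 h as the sample labels give it. For its other experiments the study's text gives the Cisplatin dose in micromolar. The virus carried either an shRNA that served as control (shControl) or one that targets RNF113A (shRNF113A). Each of the 4 conditions had 3 libraries, and nothing in the labels says whether these came from separate infections, so that p-values measure only the spread between these libraries. Both arms carried a virus and puromycin selection, and the number of shRNA sequences against RNF113A used for these libraries is not given in the sources used here. The splicing tables do not say which of a condition's 3 values belongs to which replicate number, and the values are called libraries a, b and c.

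Splicing removes an intron after the spliceosome has recognised the 5′ splice site, the branch point and the 3′ splice site. RNF113A is a RING finger E3 ubiquitin ligase that is also a component of the activated spliceosome. An intron that stays in an mRNA often brings a stop codon into the reading frame, and such RNAs can be held in the nucleus or removed by nonsense-mediated decay. A small group of introns, the U12-type, is removed by the minor spliceosome and carries a long conserved 5′ splice site.

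The 5′ and 3′ splice sites of 5 of the 12 introns with the largest rise and of 1 of the most deeply read introns that did not pass the test were chosen for display, because the introns that rose included both strong and weak sites. Sequences are the GRCh37 reference, 5′ to 3′ on the gene's strand. The first run of each line is the last 3 exonic and first 9 intronic bases and the second is the last 25 intronic and first 3 exonic bases. Capitals mark the first and the last 2 bases of the intron.
NSUN5, chr7:72721755-72722427, minus strand: aagGTgagggga and tttgtctttgttccctcattcccAGgtg
DGKA, chr12:56334765-56335035, plus strand: cggGTacagggc and tccttattttcttcccccaatgcAGatt
KRI1, chr19:10675711-10676392, minus strand: gtgGTgcgcgtc and atccccaacccttttcctgccctAGgaa
PHB2, chr12:7076943-7077054, minus strand: tggGTgagtcgc and tctccctgactctctcccaccacAGccc
LIN37, chr19:36245221-36245293, plus strand: gagGTgagcgtc and ctgagtctcccctctgcctccccAGgtg
GAPDH, chr12:6645957-6646085, plus strand, not called: ggaGTgagtgga and ccccatctcccccccacccccatAGgcg

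The 5 U12-like introns that passed the test after Cisplatin are shown for their 5′ splice sites. The motif searched was GTATCCTT or ATATCCTT at the first intronic base on the gene's strand. It stood at the start of 9 of the 1463 introns (0.615%) and of 7 of the other 1971 introns (0.355%). Capitals mark the motif at the 5′ splice site and the last 2 bases of the intron.
UBXN4, chr2:136511138-136511728, plus strand: tctGTATCCTTt and tgttagacttcattaaactgtacAGatc
PSMA1, chr11:14535434-14535948, minus strand: gcaGTATCCTTt and aaacaagctcgttaaccagtctaAGaga
C3orf17, chr3:112731659-112732118, minus strand: tctGTATCCTTg and tttctaccttaaattgattttccAGttt
RPL4, chr15:66795089-66795395, minus strand: aacGTATCCTTt and atgtgattcttgactggaaaaatAGatg
SMYD2, chr1:214504414-214505360, plus strand: aatATATCCTTt and ggccctttccttgactccacagcACccc

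The libraries held 33859097 to 56071514 read pairs, and those of the Cisplatin-treated depleted cells were the smallest. Normalised counts of RNF113A were 707 to 743 in untreated control cells, 555 to 612 in untreated depleted cells, 997 to 1144 in Cisplatin-treated control cells and 855 to 1047 in Cisplatin-treated depleted cells. The Cisplatin-treated groups overlapped, and the log2 fold change of -0.14 did not pass the test (SE 0.09, adjusted p = 0.233, edgeR quasi-likelihood test). In bulk RNA, fewer cells with a transcript and less of it per cell cannot be told apart. Of 6 epithelial markers, KRT8, KRT18 and KRT7 had 39119 or more normalised counts in each library and CDH1 1123 or more, whereas EPCAM ranged from 132 to 3549 and KRT19 from 24.4 to 193. Their sum was 229171 to 240495 in the Cisplatin-treated depleted libraries and 167314 to 239227 in the Cisplatin-treated control libraries. The summed level of 11 markers of leukocytes, endothelium and fibroblasts was 297 to 396 in the Cisplatin-treated depleted libraries and 305 to 602 in the Cisplatin-treated control libraries, and it reached 1488 in an untreated control library. Of the 11, COL1A1, at 121 to 1266, and CD14, at 40.2 to 158, were the highest, and the leukocyte marker PTPRC and the endothelial markers PECAM1, VWF and CDH5 were at 17.1 or less in each library. The share of genic reads that fell in introns was 9.92% to 10.3% in the Cisplatin-treated depleted libraries and 4.64% to 7.15% in the Cisplatin-treated control libraries. The share of reads on the strand opposite to the gene was 1.93% to 1.99% in the former and 1.69% to 1.72% in the latter, and the part of genomic DNA or nuclear RNA in the introns' reads was not tested.

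In untreated control cells, the group that chose them, the introns had a median of 1.37% inclusion (1436 introns, those also measured after Cisplatin). The median was 2.19% in untreated depleted cells, 1.51% in Cisplatin-treated control cells and 2.99% in Cisplatin-treated depleted cells. By library it was 1.16% to 1.36% in untreated control cells and 1.91% to 2.31% in untreated depleted cells, so these groups did not overlap. After Cisplatin the control libraries a, b and c had medians of 1.40%, 1.06% and 1.91%, and the depleted libraries 2.85%, 3.00% and 2.72%. Control library c thus stood above the other two, and all 3 depleted libraries stood above it.

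**Figure D1:**
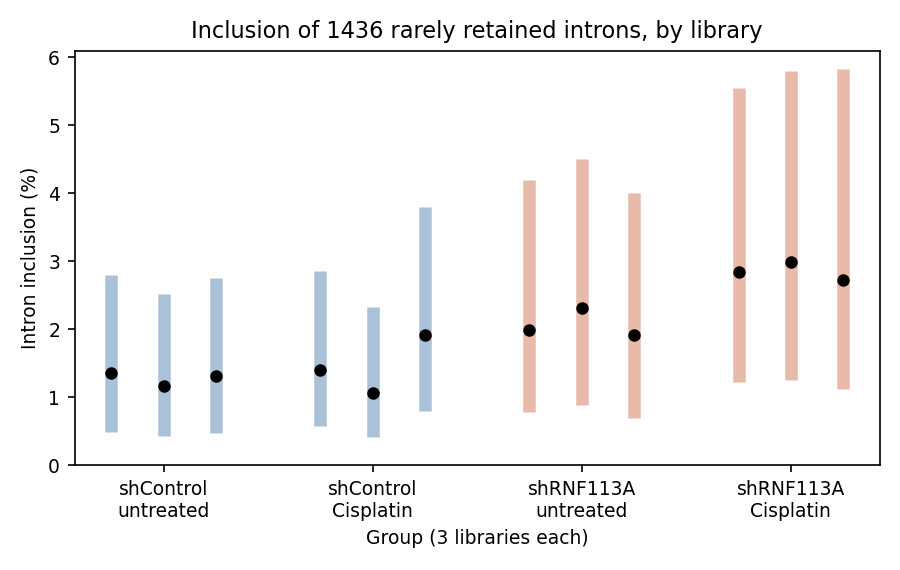
Inclusion of the 1436 introns measured in all conditions, as percent on the y axis, for each library on the x axis (black dot, median; bar, lower to upper quartile; blue, shControl; orange, shRNF113A). The medians of the Cisplatin-treated depleted libraries lie between 2.72% and 3.00%, above those of the other 9 libraries.

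The comparisons that include the untreated control libraries are descriptions, since these libraries chose the introns. Mean inclusion was higher in untreated depleted than in untreated control cells for 1271 of 1463 introns (86.9%), with a median difference of 0.63 percentage points. It was higher after Cisplatin than before in control cells for 957 of 1453 introns (65.9%), with a median difference of 0.14 points. It was higher after Cisplatin in depleted cells for 1148 of 1436 introns (79.9%), with a median difference of 0.59 points. An inclusion of at least 10% was reached by 27 introns in untreated depleted cells, by 3 in Cisplatin-treated control cells and by 114 in Cisplatin-treated depleted cells.

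The comparison of depleted with control cells after Cisplatin used libraries that had no part in the choice of the introns. Of the 1463 introns, 1459 were listed in this comparison and 1436 had at least 10 reads in each of its libraries. Inclusion rose in 552 of the 1436 introns (38.4%) and fell in none at an adjusted p under 0.05 (edgeR quasi-likelihood test of inclusion against skipping reads, adjusted over all 3541 introns tested). Below, introns counted as having risen or fallen are those called at this adjusted p. At an unadjusted p under 0.05 there were 799 introns, 5 of them lower. Over all introns tested, 25.4% were called higher and 0.65% lower. The median change in the odds of inclusion was 0.98 on the log2 scale in the rarely retained introns, with quartiles of 0.61 and 1.41, against 0.82 over all introns, with quartiles of 0.27 and 1.29. The 3541 include the rarely retained introns. Of 1844 tested introns at 5% or more in untreated control cells, 18.3% were called higher and 20 introns lower, with a median of 0.69. Mean inclusion was higher in depleted cells for 93.2% of the rarely retained introns and for 82.6% of all introns.

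The introns' rise was small in absolute terms. Among the 552 called introns, the median difference was 2.51 percentage points, with quartiles of 1.05 and 4.91, and 131 differed by less than 1 point. A rise of at least 5 points was seen in 134, which is 9.33% of the 1436 tested, beside 13.2% of all introns tested. It was at least 10 points in 15 and at least 20 points in none. In 775 of the 1436 introns (54.0%) each depleted library was above each control library, against 40.0% of all introns tested, and in 6 each was below, none of which was called.

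The count of calls depended on single libraries and on the scaling. It was 304 without control library a, 319, 321 and 320 without depleted libraries a, b and c, and 778, with 1 intron lower, without control library c. Inclusion and skipping reads were also each scaled by their own totals and TMM factors, which removes most of the median shift over all introns. With this separate scaling 116 were called higher and 6 lower, and the median of all introns moved from 0.82 to 0.16. Over all introns this scaling called 165 higher and 83 lower. With DESeq2 and median-ratio size factors, which do the same, 13 were called higher and 4 lower.

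**Figure D2:**
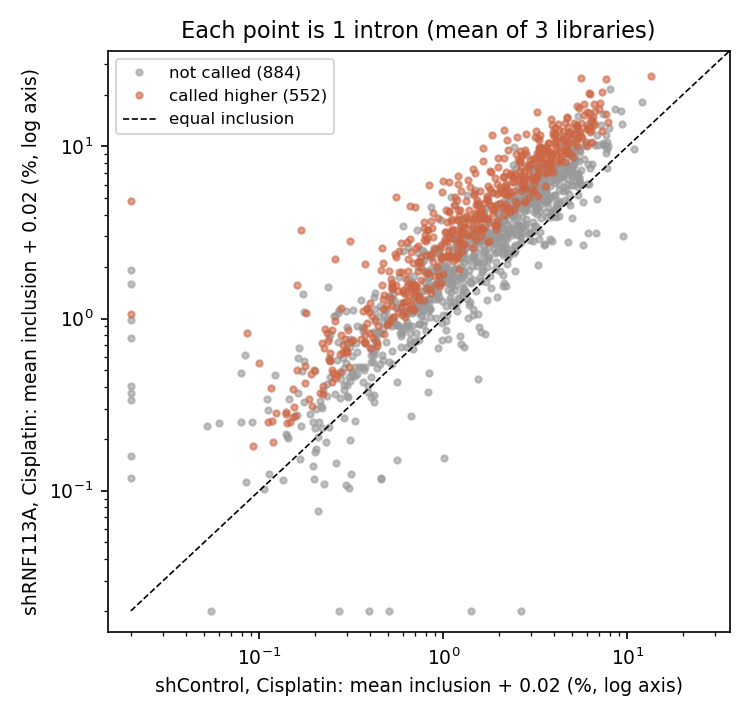
Mean inclusion of each of the 1436 introns in Cisplatin-treated depleted cells (y axis) against Cisplatin-treated control cells (x axis), in percent plus 0.02 on log axes, each a mean of 3 libraries. The 552 introns called higher (orange) lie above the dashed line of equal inclusion, and 884 introns (grey) were not called.

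The share of introns called did not fall towards the most completely spliced ones. It was 39.1% of the 565 introns under 1% inclusion in untreated control cells, 37.8% of the 333 at 1% to 2% and 38.1% of the 538 at 2% to 5%. Among introns retained more often, it was 34.0% at 5% to 20%, 23.02% at 20% to 50% and 5.49% at 50% or more. The median change in log2 odds was 0.99, 1.01 and 0.96 in the first 3 classes and 0.88, 0.78 and 0.34 in the others. The median difference in inclusion went from 0.48 points under 1% to 2.94 points at 2% to 5%, and was largest, at 11.2 points, at 20% to 50%. These shares are given without a test, since introns are not replicates. Depth also differed between the classes. Median reads per library were 343.5, 246.8 and 186.1 in the first 3 classes and 162.5, 126.6 and 224 in the others. The part of depth in the shares was not tested.

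**Figure D3:**
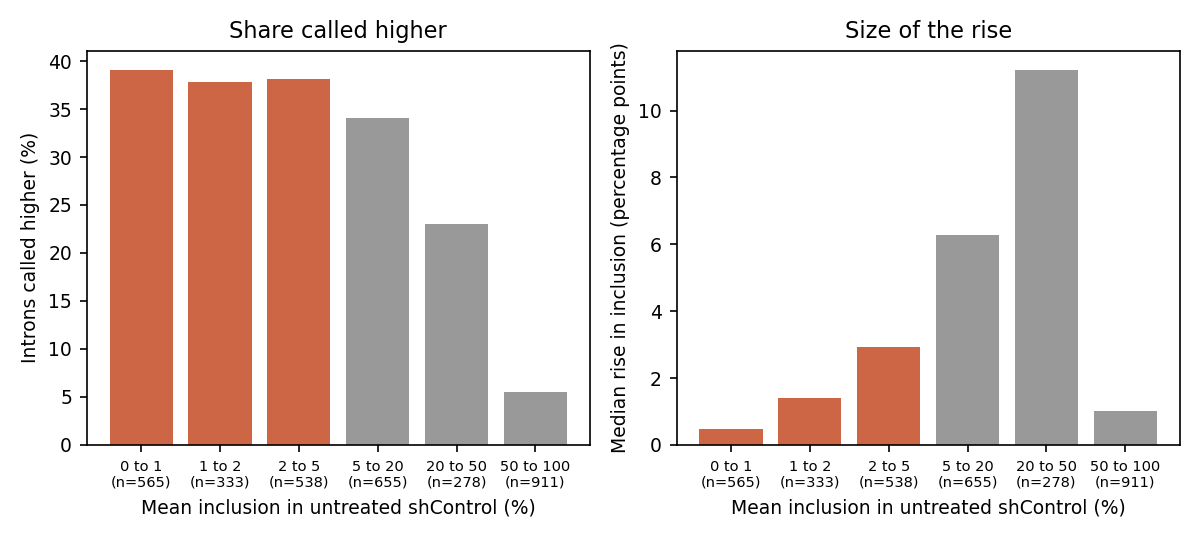
Share of introns called higher (left, percent) and median rise in inclusion (right, percentage points) in depleted against control cells after Cisplatin, by mean inclusion in untreated control cells (orange, the rarely retained introns; grey, the others). The share is 37.8% to 39.1% in the 3 orange classes and 5.49% in the last grey class, while the median rise is 0.48 to 2.94 points in the orange classes. Median reads per library were 343.5 under 1%, 126.6 at 20% to 50% and 224 at 50% or more.

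The share of introns called differed with depth. The introns had a median of 247 reads per library after Cisplatin, but a median of 17.3 inclusion reads in control and 25.2 in depleted libraries. Of introns with under 50 reads per library 8.55% were called, and of those with 400 reads or more 59.8%, where of the introns at 5% or more in untreated control cells 3.72% and 28.0% were. The median change was 0.94 in log2 odds in both classes. Counts were simulated with the means of the Cisplatin-treated control libraries and the library sizes of these samples. The spread between simulated libraries was set, not taken from these data, and no shift common to all introns was simulated. In these counts 35 of 100 changes of 2-fold and 76 of 100 of 4-fold were called. An intron that was not called was thus not shown to be unchanged.

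The 12 called introns with the largest rise, among those with at least 50 reads in each library and no overlap between the groups, are given by the role of their host genes. Genes of translation and the ribosome came first. Inclusion of the second intron of NSUN5 (ENSG00000130305), which encodes an rRNA methyltransferase, was 4.69%, 3.79% and 8.14% in the Cisplatin-treated control libraries and 21.8%, 22.1% and 31.3% in the depleted ones. All 3 depleted libraries stood well apart, with a difference of 19.5 points and a log2 odds change of 2.55 (SE 0.33, adjusted p = 1.18e-08). NSUN5 has near-identical pseudogene copies between which reads can be split, and its value is uncertain. Intron 8 of DNAJC2, a chaperone bound to ribosomes, held 6.63%, 4.95% and 10.2% in control and 20.0%, 21.9% and 20.6% in depleted libraries (log2 odds 1.75, SE 0.39, adjusted p = 0.000525). The intron is 70 nt long (chr7:102963080-102963149) and lies opposite to PMPCB. Intron 2 of KRI1, whose yeast homologue acts in ribosome assembly, held 2.59%, 2.14% and 6.81% in control and 14.0%, 16.6% and 13.0% in depleted libraries (log2 odds 2.15, adjusted p = 0.000173). The groups of all 3 introns were separate, although control library c was the highest control library in each.

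Genes of membranes and protein turnover formed the next group. Intron 3 of GPAA1, a subunit of the enzyme that attaches GPI anchors, held 5.93%, 4.06% and 8.50% in control and 19.4%, 19.1% and 22.7% in depleted libraries (log2 odds 2.01, SE 0.33, adjusted p = 2.89e-06). The GPAA1 intron overlaps another annotated gene on the same strand, ENSG00000290230. Intron 3 of UBXN4, an endoplasmic reticulum protein that recruits the ATPase VCP, held 4.64%, 3.14% and 8.63% in control and 16.1%, 14.4% and 19.5% in depleted libraries (log2 odds 1.86, adjusted p = 0.000206). This is one of the U12-like introns printed above. Intron 12 of HGS, an endosomal sorting protein, held 7.85%, 4.08% and 9.18% in control and 16.3%, 18.5% and 18.7% in depleted libraries (log2 odds 1.55, adjusted p = 0.00138). Intron 5 of GORASP1, which encodes a Golgi stacking protein, held 12.8%, 9.38% and 18.0% in control and 25.2%, 21.2% and 30.6% in depleted libraries. Its change in odds was the smallest of the 12, its mean in untreated control cells was 4.18%, and its call (log2 odds 1.15, adjusted p = 0.0485) was lost when any 1 of control libraries a and b or of the depleted libraries was left out, with adjusted p between 0.081 and 0.206.

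The remaining introns lay in genes of other roles. Intron 5 of L3MBTL2, a chromatin protein of a Polycomb-related complex, held 4.92%, 3.62% and 7.38% in control and 15.1%, 17.3% and 19.1% in depleted libraries (log2 odds 1.91, adjusted p = 0.000455). This intron overlaps L3MBTL2-AS1 on the other strand, and the strand setting of the splicing counts is not given in the sources used here. Intron 5 of PHB2, a mitochondrial prohibitin, held 4.22%, 3.45% and 6.35% in control and 14.6%, 14.4% and 15.8% in depleted libraries (log2 odds 1.87, SE 0.30, adjusted p = 1.74e-06). It was the most deeply read of the 12, with at least 1304 reads in each library. Intron 13 of DGKA, a diacylglycerol kinase, held 6.69%, 4.56% and 8.39% in control and 20.6%, 17.8% and 14.6% in depleted libraries (log2 odds 1.59, adjusted p = 0.00138). Intron 8 of LIN37, a subunit of the cell-cycle repressor complex DREAM, held 2.11%, 1.44% and 1.92% in control and 10.5%, 11.5% and 13.1% in depleted libraries, on 9 and 38 inclusion reads in all (log2 odds 2.81, SE 0.67, adjusted p = 0.00119). Its control libraries lay below its mean of 3.36% in untreated control cells. The LIN37 intron overlaps another annotated gene on the same strand, ENSG00000188223. Intron 2 of NDRG4 held 4.81%, 2.46% and 6.74% in control and 12.02%, 22.97% and 8.94% in depleted libraries (log2 odds 1.78, adjusted p = 0.00406). The depleted libraries were the most scattered of the 12, and without depleted library b the adjusted p was 0.102. With inclusion and skipping reads scaled separately, 4 of the 12 introns no longer passed the test, those of DGKA (adjusted p = 0.057), HGS (adjusted p = 0.064), NDRG4 (adjusted p = 0.085) and GORASP1 (adjusted p = 0.517). With DESeq2 and median-ratio size factors those of NSUN5, GPAA1 and PHB2 passed the test, that of LIN37 got no adjusted p, and the other 8 had adjusted p between 0.123 and 0.879.

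**Figure D4:**
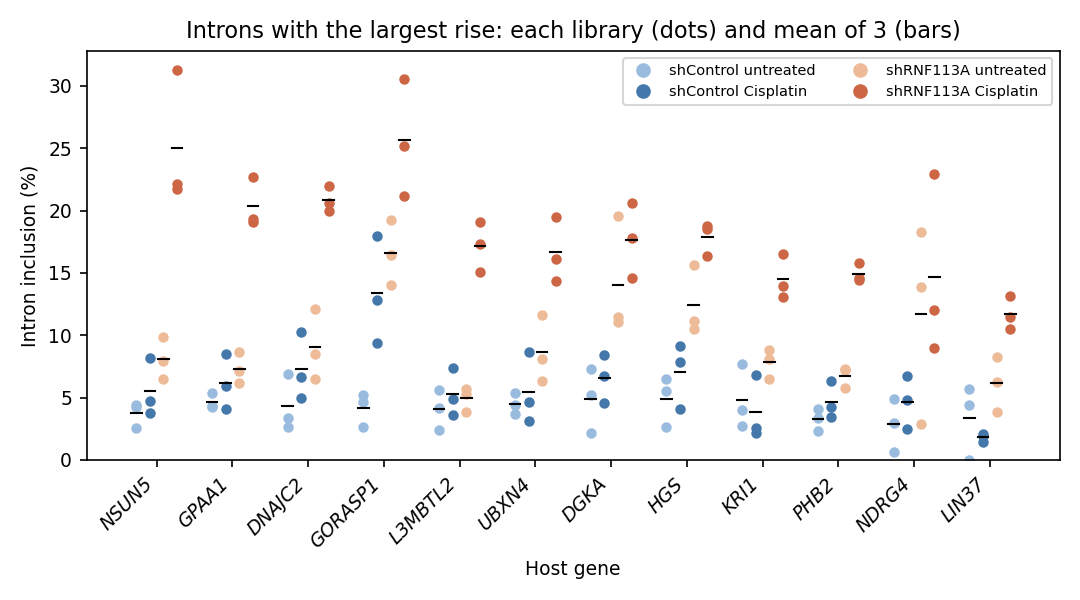
Inclusion in percent (y axis) of the 12 introns with the largest rise, by host gene (x axis), in each library of the 4 conditions (dots) with the mean of 3 libraries (bars). In NSUN5 the Cisplatin-treated depleted libraries lie between 21.8% and 31.3% and the Cisplatin-treated control libraries between 3.79% and 8.14%.

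Of the introns with most reads that did not pass the test, 3 are described, and all lay in very abundant mRNAs. Intron 4 of GAPDH, a glycolytic enzyme, held 0.349%, 0.388% and 0.413% in control and 0.543%, 0.583% and 0.499% in depleted libraries (log2 odds 0.50, SE 0.25, adjusted p = 0.117). The groups did not overlap, although the difference was under 1 point. Introns of PPIA, a peptidyl-prolyl isomerase (log2 odds 0.67, adjusted p = 0.0532), and of RPL37A, a protein of the large ribosomal subunit (log2 odds 0.59, adjusted p = 0.0796), had values under 0.5% in each library. Without control library c all 3 were called. When the scaling removed most of the median shift over all introns, the log2 odds of these 3 introns took the opposite sign with DESeq2 (-0.27 to -0.45), and those of GAPDH and RPL37A also did so with separate scaling in edgeR.

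The introns nearest to the limit of 5% are given without a test of the limit. Just inside it were introns of FAM211A-AS1, VPS28 and TTC23, with means of 4.97%, 4.97% and 4.99% in untreated control cells. Just outside it were introns of RUSC1 and MYO15B, with means of 5.01% and 5.05%. After Cisplatin the first 3 held 4.56%, 4.84% and 6.11% in control and 8.09%, 8.20% and 3.12% in depleted cells, and the other two 6.01% and 3.88% in control and 11.8% and 10.8% in depleted cells. The intron of TTC23, which ranged from 0.608% to 7.18% between the untreated control libraries, had as few as 14 reads in a library.

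Genes of the splicing machinery held 55 of the introns tested. Of these, 26 (47.3%) rose and none fell, beside 38.4% of the rarely retained and 25.4% of all introns, with a median log2 odds change of 0.99 beside 0.98 over the rarely retained introns and 0.82 over all introns. Intron 2 of HNRNPA1, a regulator of splice site choice, held 0.486%, 0.274% and 0.693% in control and 1.95%, 1.79% and 1.91% in depleted libraries (log2 odds 2.05, SE 0.28, adjusted p = 5.42e-08). Its depleted libraries lay close together, far above the control libraries. The HNRNPA1 intron overlaps another annotated gene on the same strand, ENSG00000258344, and the part of that gene in its reads was not tested. Introns of the RNA helicase gene DDX5 (1.94% and 3.46% mean inclusion in control and depleted cells, adjusted p = 0.015) and of the cold-induced RNA binding protein gene RBM3 (3.25% and 5.16%, adjusted p = 0.0366) also rose. Both calls were lost without control library a or without any 1 depleted library, and with the scalings that remove most of the median shift over all introns. With separate scaling of the 2 kinds of reads, 11 of the 55 introns were called higher. The 55 had a median of 368.5 reads per library, beside 247 over the rarely retained introns.

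Genes of ribosomal proteins and translation factors held 91 tested introns, of which 57 (62.6%) rose and none fell, beside 38.4% of the rarely retained and 25.4% of all introns. Their median log2 odds change of 0.87 lay below the 0.98 of the rarely retained introns. They were read far more deeply than the others, with a median of 5537 reads per library, and their inclusion was low, with medians of 0.549% in control and 1.07% in depleted cells. Introns 3 and 6 of EEF1A1, the elongation factor that delivers tRNAs, had means of 0.0981% and 0.203% in control and 0.173% and 0.345% in depleted cells (adjusted p = 0.0125 and 0.0155). Intron 6 of RPS2 went from 0.380% to 0.651% (adjusted p = 0.0104). It contains the small nucleolar RNA SNORA10. The calls in EEF1A1 and RPS2 were lost without control library a or without depleted library a, with adjusted p between 0.053 and 0.155. Without depleted library b, those of EEF1A1 intron 6 (adjusted p = 0.067) and RPS2 (adjusted p = 0.073) were lost. Without depleted library c, that of EEF1A1 intron 3 was (adjusted p = 0.081). All 3 calls were also lost with separate scaling and with DESeq2 and library totals. With DESeq2 and median-ratio size factors they were lost too, and the log2 odds took the opposite sign (-0.13 and -0.18 in introns 3 and 6 of EEF1A1 and -0.15 in RPS2). Processed pseudogenes of such abundant mRNAs, GAPDH and PPIA included, can take up reads of the spliced form, which makes these low values uncertain. With separate scaling of the 2 kinds of reads, 12 of the 91 introns were called higher.

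Genes of DNA repair and damage signalling held 22 tested introns, of which 10 (45.5%) rose and none fell, beside 38.4% of the rarely retained and 25.4% of all introns. Their median log2 odds change was 1.32, beside 0.98 and 0.82. Intron 2 of APEX1, the major endonuclease at abasic sites, held 3.28%, 2.72% and 4.94% in control and 8.84%, 8.78% and 11.4% in depleted libraries (log2 odds 1.52, SE 0.31, adjusted p = 0.000187). Intron 6 of PPP4C, a phosphatase that acts on the damage marker γH2AX, held 1.20%, 0.912% and 2.28% in control and 4.21%, 4.42% and 3.58% in depleted libraries (adjusted p = 0.00102). Both introns were apart between the groups. With separate scaling the call of APEX1 was kept (adjusted p = 0.014) and that of PPP4C was lost (adjusted p = 0.060). With DESeq2 and median-ratio size factors both calls were lost (adjusted p = 0.320 and 0.439). Intron 5 of UBE2T, the ubiquitin-conjugating enzyme of the Fanconi anaemia pathway, held 3.29% in control and 5.62% in depleted cells and did not pass the test (adjusted p = 0.0583). With separate scaling, 3 of the 22 were called higher. The 22 had a median of 168 reads per library, beside 247 over the rarely retained introns.

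Genes of cell death and the BCL2 family held 5 tested introns with a median log2 odds change of 0.96, of which 1 (20.0%) passed the test, beside 38.4% of the rarely retained and 25.4% of all introns. That of the calcium-binding protein gene PDCD6 rose, from 1.44% to 3.01% (adjusted p = 0.00375). The PDCD6 intron lies within the readthrough gene PDCD6-AHRR. Its call was lost with separate scaling (adjusted p = 0.242) and with DESeq2 and median-ratio size factors (adjusted p = 0.808). Introns of the glutathione peroxidase gene GPX4 (0.120% and 0.192%, adjusted p = 0.238) and of the mitochondrial protease gene HTRA2 (5.41% and 9.66%, adjusted p = 0.0767) did not pass the test. Without control library c, 3 of the 5 were called higher, and with separate scaling none was. The 5 had a median of 174 reads per library, beside 247 over the rarely retained introns.

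Genes of mitochondrial respiration and the mitochondrial ribosome held 19 tested introns, of which 12 (63.2%) rose and none fell, beside 38.4% of the rarely retained and 25.4% of all introns. Their median log2 odds change was 1.02, beside 0.98 and 0.82. They had a median of 692 reads per library, beside 247 over the rarely retained introns, and the part of depth in the share was not tested. An intron of COX4I1, a subunit of cytochrome c oxidase, went from 0.783% to 1.48% (adjusted p = 0.00736), and this call was lost without control library a (adjusted p = 0.064), depleted library a (adjusted p = 0.079) or depleted library b (adjusted p = 0.051). It was also lost with DESeq2 and library totals (adjusted p = 0.069), with separate scaling (adjusted p = 0.471) and with DESeq2 and median-ratio size factors (adjusted p = 0.984). Introns of the complex III gene UQCRQ (1.67% and 2.49%, adjusted p = 0.106) and of the outer membrane channel gene VDAC2 (0.387% and 0.649%, adjusted p = 0.13) did not pass the test. With separate scaling, 1 of the 19 was called higher.

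Genes of the proteasome and ubiquitin system held 40 tested introns, of which 19 (47.5%) rose and none fell, beside 38.4% of the rarely retained and 25.4% of all introns. Their median log2 odds change of 0.87 lay below the 0.98 of the rarely retained introns. Intron 14 of TRIM28, a transcriptional co-repressor with a RING finger, held 0.566%, 0.583% and 0.687% in control and 1.45%, 1.70% and 1.42% in depleted libraries (log2 odds 1.32, adjusted p = 0.000888). This call was lost with separate scaling (adjusted p = 0.095) and with DESeq2 and median-ratio size factors (adjusted p = 0.636). Introns of the proteasome subunit genes PSMB4 (3.63% and 4.87%, adjusted p = 0.229) and PSMA4 (0.560% and 0.800%, adjusted p = 0.188) did not pass the test. With separate scaling, 5 of the 40 were called higher. The 40 had a median of 774 reads per library, beside 247 over the rarely retained introns. Of the 1204 tested introns whose host gene was on none of these lists, 427 rose.

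Where a gene held several of these introns, they did not always share the call. Among 238 genes with at least 2 tested introns, each intron was called higher in 54, some were in 106 and none was in 78. Of the 593 introns in these genes, 274 were called, beside 38.4% of the rarely retained and 25.4% of all introns. The median range of the log2 odds change within a gene was 0.57. The most introns, 7 each, lay in ABCF3, an ATP-binding protein of the ABC family, and in DGKA, and these genes were chosen by that count. In ABCF3, introns 2, 4, 5, 10 and 11 rose, with mean inclusion of 1.88% to 4.22% in control and 6.51% to 9.58% in depleted cells. Its introns 12 and 17 did not pass the test (log2 odds 1.00 and 0.71, adjusted p = 0.189 and 0.276). In DGKA, introns 7, 11, 13 and 20 rose, with mean inclusion of 1.98% to 6.55% in control and 5.40% to 17.7% in depleted cells. Introns 16, 18 and 23 of DGKA had log2 odds changes of 1.34, 1.10 and 0.85 and did not pass the test. In both genes each of the 7 introns had a positive change.

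**Figure D5:**
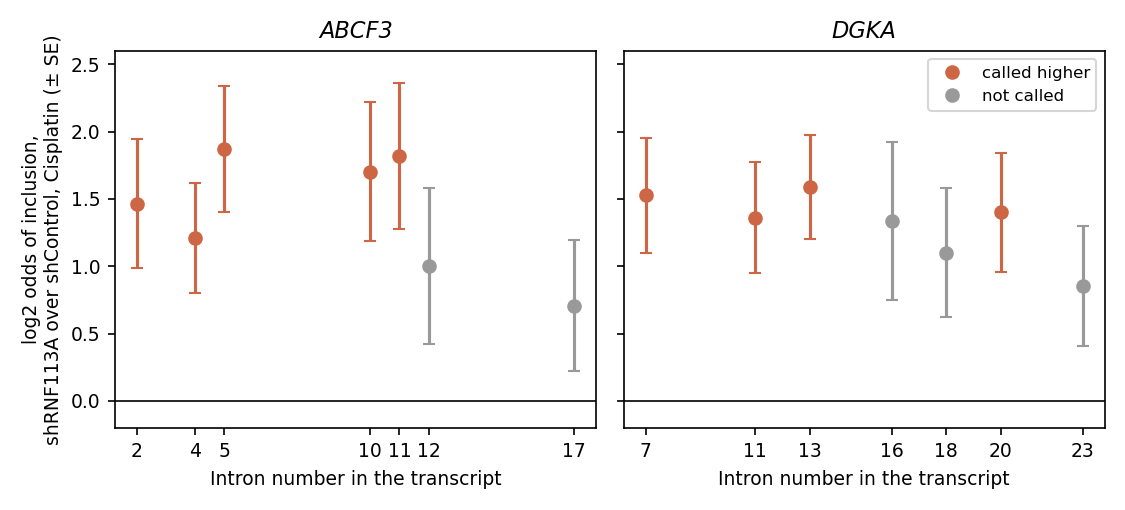
Log2 odds of inclusion in depleted over control cells after Cisplatin (y axis; dots, estimates; bars, ± SE) for the 7 introns of ABCF3 and the 7 of DGKA, by intron number (x axis). The changes range from 0.71 to 1.87 in ABCF3 and from 0.85 to 1.59 in DGKA, with the called introns in orange.

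The introns differed from the others in several properties. Length entered their choice, since inclusion divides the reads that hold the intron by a length that includes it. The other properties below were not used by the choice. Between coding exons lay 98.2% of them, against 67.4% of the other 1971 introns. Among the introns between coding exons, retention brought a stop codon in frame for 1200 of 1436 (83.6%) and for 79.7% of the others. They were shorter, with a median of 221 nt against 295 nt, and 25.0% against 14.4% were at most 100 nt long. Their median GC content was 55.8%, against 56.7%. GT and AG stood at the ends of 99.04% of them and of 98.43% of the others. Scores of the splice sites, the summed log2 ratio of each base's frequency at 182259 annotated introns to that of a uniform sequence, had medians of 7.79 against 7.09 at the 5′ and 8.30 against 7.39 at the 3′ splice site. The median share of pyrimidines was 76.5% against 70.6% in a window of 17 intronic bases that ended shortly before the 3′ splice site.

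Within the rarely retained introns, these properties went with smaller differences in the response to depletion. The share called was 32.4% of those of at most 100 nt and 48.6% of those over 1000 nt, while the median log2 odds changes were 0.92 and 0.99. Longer introns offer more positions for inclusion reads, and the part of this in the calls was not tested. The share called was 41.8% of the 359 introns with the weakest and 38.1% of the 360 with the strongest 5′ splice sites. For the 3′ splice site it was 42.3% of the 359 weakest and 35.1% of the 359 strongest. By GC content it was 34.0% of the 359 introns with the lowest and 28.4% of the 359 with the highest content, and 45.4% and 46.0% of the 359 on each side of the median between them. Introns that brought a stop codon in frame were called in 473 of 1178 cases (40.2%) and those that did not in 70 of 231 (30.3%), with medians of 0.99 and 0.94 in log2 odds.

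All 9 U12-like introns were tested. Those of UBXN4, PSMA1, C3orf17, RPL4 and SMYD2 rose, and the median log2 odds change of the 9 was 1.14. Beside this, 38.4% of the rarely retained and 25.4% of all introns rose, with medians of 0.98 and 0.82. The intron of RPL4 had at least 13338 reads in each library. The intron of PSMA1, a proteasome subunit, held 4.82%, 3.98% and 7.06% in control and 12.2%, 12.3% and 15.1% in depleted libraries. Its groups were far apart, on at least 1768 reads in each library. The intron of SMYD2, a lysine methyltransferase, is the AT-AC intron printed above, and went from 3.57% to 6.97% (log2 odds 1.07, adjusted p = 0.021). Introns of ZDHHC5, SLC12A4, NOL11 and TTC23 did not pass the test.

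A small RNA gene lay inside 23 tested introns, of which 14 rose, with a median log2 odds change of 0.82, beside 38.4% and 0.98 over the rarely retained and 25.4% and 0.82 over all introns. Inclusion reads of such introns can include the small RNA or its precursor. A gene on the other strand overlapped 151 tested introns, of which 60 rose, with a median of 0.98. Among the 1151 introns over which the annotation places no small RNA and no other gene, 430 (37.4%) rose, with a median of 0.98.

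Counts of the same libraries by another program gave the intronic against exonic reads of the host genes. These are not independent of the splicing counts, since they come from the same reads. The ratio rose in 934 of 1014 host genes tested (92.1%) and fell in none, with a median of 1.02 on the log2 scale. Over all 10141 genes tested it rose in 82.4% and fell in 0.118%, with a median of 0.97. The part of depth in these shares was not tested. The scalings that remove most of the median shift over all introns were not applied to this ratio. Of the 405 tested hosts of a called intron, 391 had a higher ratio. In PHB2 the ratio changed by 1.21 (SE 0.23, adjusted p = 0.000106) and in HNRNPA1 by 1.79 (SE 0.25, adjusted p = 6.94e-06), whereas in RBM3 the change of 0.08 did not pass the test (SE 0.22, adjusted p = 0.73).

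Few host genes changed in mRNA level by 2-fold or more. Of 1088 hosts tested, 15 were at least 2-fold higher and 18 at least 2-fold lower in depleted than in control cells after Cisplatin, where 6.9% and 5.42% of all 15352 genes were (adjusted p under 0.05, edgeR quasi-likelihood test). The hosts were chosen with a read minimum at their introns, and the part of depth in these 2-fold shares was not tested. At the adjusted p alone, 256 (23.5%) were higher and 191 (17.6%) lower, where 21.1% and 21.8% of all genes were. This excess of higher hosts was not stable. With DESeq2 the counts were 233 higher and 239 lower. With 1 library left out, lower hosts outnumbered higher ones except without depleted replicate 3 (179 higher and 136 lower). In the main test, of the 432 tested hosts of a called intron, 101 were higher and 57 lower at the adjusted p alone, 3 and 5 of them by at least 2-fold, and the median log2 fold change was 0.08. Of the hosts of the 12 largest rises, HGS was higher by 0.71 on the log2 scale (SE 0.11, adjusted p = 0.000398). Also higher were KRI1 (0.59, adjusted p = 0.00368), DNAJC2 (0.55, adjusted p = 0.0109), GORASP1 (0.46, adjusted p = 0.000234) and L3MBTL2 (0.27, adjusted p = 0.0192). Only NDRG4 fell at the adjusted p, by 0.70 (SE 0.12, adjusted p = 0.000742). Among those that did not pass the test were NSUN5 (0.23, adjusted p = 0.0547) and PHB2 (0.10, adjusted p = 0.261). The repair gene APEX1 did not pass it either (0.01, adjusted p = 0.887).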

How the data were processed

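Paired-end reads of stranded mRNA libraries were trimmed by the authors and aligned to hg19 with STAR 2.5.2b, and splicing events were counted with rMATS on an Ensembl annotation of the same build. The deposited counts of reads per gene (STAR), and of exonic and genic reads (HTSeq), are raw. The splicing tables hold raw inclusion and skipping read counts of the 3 libraries of a condition in 1 cell. Their p-values, FDR and inclusion differences hold the authors' own comparisons and were not used, nor were 2 columns of inclusion levels.

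Introns were tested with edgeR 4.0.16 (R 4.3.3) quasi-likelihood fits of inclusion against skipping reads with a term for each library, and hosts' intronic against exonic reads likewise (at least 10 of each). Expression used all 12 libraries, TMM and filterByExpr. The Benjamini-Hochberg adjustment covered all features tested. DESeq2 1.42.0 was an alternative and gave size factors of normalised counts. The expression test called 177 of 200 simulated 2-fold changes (12 of the unchanged genes). Of 2009 host gene IDs, 1999 matched Gencode release 44, lifted to GRCh37.

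Members and gene lists were chosen with earlier results of these data known. Named introns were the 12 largest rises with at least 50 reads per library and no overlap (1 per gene), the 4 largest falls (none was called), the 4 most deeply read that were not called, the 3 on each side of the limit, and the 3 most deeply read per list. Of these, 2 introns are not reported here. Introns outside this rule (ABCF3, DGKA beyond its first, U12-like ones) were named after their values were seen.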

Additional observations from a re-analysis of the deposited data

How the results depend on the processing

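Members called higher numbered 552 and lower 0. The counts were 134 and 0 with a difference of at least 5 points, 0 and 0 with at least 20 points (the limit fixed as an inclusion of 0.2), 347 and 0 with membership under 2%, 292 and 0 with DESeq2 and library totals (chosen after seeing the data), and within 1.5 times at 20 reads per library, with no read minimum, with membership under 10% and with 1 event per intron. Leaving out 1 library gave 304 to 778 higher (304 without control a, 319, 321 and 320 without depleted a, b and c) and 0 to 2 lower, with medians of 0.82 to 1.23; the cause was not tested.

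A pair of scalings removes most of the median shift over all introns, by construction. DESeq2 with median-ratio size factors gave 13 higher, 4 lower and a median log2 odds change of 0.068, and separate scaling in edgeR (chosen after seeing the data) 116, 6 and 0.32. With the former, named introns took the opposite sign: DDX5 -0.073, EEF1A1 -0.18 and -0.13, GAPDH -0.45, GPX4 -0.24, PPIA -0.27, PSMA4 -0.37, PSMB4 -0.51, RBM3 -0.23, RPL37A -0.36, RPS2 -0.15, UBE2T -0.14, UQCRQ -0.36, VDAC2 -0.20 and VPS28 -0.14. With the latter, GAPDH -0.17, PSMA4 -0.11, PSMB4 -0.23, RPL37A -0.087 and UQCRQ -0.088 did.

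Host genes with a higher intronic ratio numbered 934, 814 to 986 with 1 library left out, and 932 with at least 1 read of each kind. Host expression calls (33 at 2-fold) were 26 to 38 with 1 library left out. At the adjusted p alone, those higher (256) were then 162 to 200 and those lower (191) 136 to 219. No paired analysis was possible for introns because the splicing columns carry no replicate number. A replicate block gave 938 hosts with a higher ratio and 32 with changed expression. Same-numbered samples deviated with correlations of -0.08 to 0.08. The labels do not say whether they share more than a number, and these correlations cannot decide it.

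Inclusion reads had a median of 17.3 per control library, and their part in the calls was not tested.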
